A study of Mus musculus with 8 samples.

Results

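The genes described here are Cxcr2, a chemokine receptor of neutrophils, and 5 of its ligands, Cxcl1, Cxcl2, Cxcl3, Cxcl5 and Cxcl15. They were chosen by symbol, and the 6 rows were found among the 27923 genes of every table. The data are single-cell RNA counts from 2 KP lung tumors, 1 from each of 2 mice, named Tumor 1 and Tumor 2. KP mice were chimeras made from C57BL/6 embryonic stem cells whose Cre-activated changes include floxed p53 (p53 fl/fl), injected into albino C57BL/6 blastocysts. Both tumors were started at 12 weeks of age by intratracheal Adeno-SPC-Cre, an adenovirus whose surfactant protein C promoter drives Cre in alveolar type II cells, and were taken 16 weeks later. All groups therefore share the genotype and the virus, and no healthy or tumor-free lung was part of the comparison. From each tumor, cells photoactivated with calcein NVOC at the Healthy/Tumor Border were sorted (calcein violet+ and calcein NVOC+) into 1 Seq-Well library, here called Border. Non-photoactivated cells of the Whole Tumor filled 3 further arrays, here called Whole, which are technical repeats of 1 tumor. Border and Whole therefore differ in photoactivation and in the calcein NVOC sort as well as in position, and these cannot be told apart. The question asked of these genes was which cells hold the RNA of the receptor and of each ligand, and whether those levels differed between Border and Whole.

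CXCR2 is a G protein-coupled receptor on the neutrophil surface that directs these cells out of the bone marrow and along a gradient of ligand into tissue. Its ligands are small secreted CXC chemokines that carry a Glu-Leu-Arg (ELR) motif just before the first pair of cysteines, and they are induced in macrophages, epithelium, stroma and neutrophils themselves by interleukin-1, tumor necrosis factor and microbial products. CXCL15, called lungkine, is a chemokine of the mouse airway and alveolar epithelium.

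The ligand genes lie together on chromosome 5 and the receptor on chromosome 1. In the GENCODE annotation of GRCm38, the build that mm10 names, Cxcr2 spans chr1:74153989-74161246. Cxcl5 lies at chr5:90759360-90761624, Cxcl3 at chr5:90786103-90789600, Cxcl15 at chr5:90794534-90803067, Cxcl1 at chr5:90891241-90893115 and Cxcl2 at chr5:90903871-90905938. All 5 ligand genes are on the plus strand, within 146579 bases that also hold the platelet chemokine genes Ppbp and Pf4. Their shared feature is the ELR motif, so its coding sequence is shown from the first motif codon to the second of the adjoining cysteine codons. These bases were read 5′ to 3′ from the coding exons of the first listed transcript of each gene, and capitals mark the Glu, Leu and Arg codons.
Cxcl1: GAGCTGCGCtgtcagtgc
Cxcl2: GAACTGCGCtgtcaatgc
Cxcl3: GAGCTGCGCtgtcagtgc
Cxcl5: GAGCTGCGTtgtgtttgc
Cxcl15: GAGCTACGAtgtctgtgt
Cxcl1 and Cxcl3 have the same 18 bases here, and Cxcl15 uses other codons for Leu and Arg. The motif was also found in Ppbp and was not found in Pf4, Cxcl12 or Cxcr2. Over their coding sequences Cxcl2 and Cxcl3 were 89.8% identical, Cxcl1 and Cxcl2 78.7%, and Cxcl1 and Cxcl3 75.6%. Cxcl2 and Cxcl3 transcripts share a run of up to 157 bases, and 5.75% of the 50-base windows of Cxcl2 and 6.31% of those of Cxcl3 occur in the other gene, so a 50-base read from there could not be told apart. No shared window was found in the last 500 bases, where reads of a 3′ method mostly fall. How the counting treated reads that fit both genes is not given in the sources used here, so their split is uncertain to that extent.

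The 3 ligands that macrophage-like and neutrophil-like cells held most also resemble each other just before their start. The 100 bases upstream of the start are shown for them because their RNA was detected in the same classes below. They come from RefSeq (GRCm38.p6, plus strand) for Cxcl1 at chr5:90891141-90891240, Cxcl2 at chr5:90903771-90903870 and Cxcl3 at chr5:90786001-90786100. Each ends just before the earlier of the GENCODE and RefSeq starts. That is the GENCODE start for Cxcl1 and Cxcl2, whose RefSeq starts are 90891245 and 90903899. For Cxcl3 it is the RefSeq start, 90786101, and the GENCODE start is 90786103. Capitals mark GGAATTTCC, a form of the NF-kappaB motif, and ATAAAA, which resembles the core element that places the start of transcription.
Cxcl1: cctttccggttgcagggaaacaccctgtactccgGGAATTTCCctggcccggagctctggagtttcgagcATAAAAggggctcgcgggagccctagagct
Cxcl2: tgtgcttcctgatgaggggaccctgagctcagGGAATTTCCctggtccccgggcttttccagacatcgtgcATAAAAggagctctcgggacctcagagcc
Cxcl3: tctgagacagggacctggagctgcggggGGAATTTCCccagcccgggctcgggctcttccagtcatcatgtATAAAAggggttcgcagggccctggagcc
Promoter windows were found for 5 of the 6 genes, all except Cxcl5. Searching both strands of the 250 bases upstream of the start, GGAATTTCC occurred in 94 of 32851 RefSeq promoters (0.286%), and ATAAAA in 17.0%. The windows of Cxcr2 and Cxcl15 held neither sequence in these letters. That of Cxcl15 held TATAAA, which starts 27 bases before its start and occurred in 4063 of the 32851 promoters (12.4%). Cxcl3 also held these letters, overlapping the bases in capitals, and Cxcr2 did not. Such a match describes the letters only.

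Cells were given a class from marker genes, and none of the 6 genes was a marker. Of 4343 barcodes, 3894 had at least 200 genes, and 2862 of these took a class while 1032 stayed ungated. A class is named after its markers with the ending -like. Total counts of unique molecular identifiers (UMIs), which tag single captured molecules, ran from 405627 to 2029200 per library. The neutrophil-like class was the largest, with 1650 cells and 111 to 420 per library, a median of 2071 UMIs per cell, and all 8 of its markers detected. It made up 67.7% of the cells of the Tumor 1 Border library, which held few cells of any other class. The ungated cells were shallow (median 494.5 UMIs). Levels are given as counts per 1000000 UMIs of the class in a library (CPM), and are compared between classes and libraries but not between genes. The cell names inside all 8 tables give Tumor 1 where the label says Tumor 2 and the reverse, and the grouping follows the labels. The number of barcodes in each labelled group equals the number of cells the study gives for it. In 56 cells, 17 of them neutrophil-like, the barcode sequence was found in more than 1 library, and without them the share of each gene in its leading class moved by less than its spread over libraries.

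Cxcr2 RNA was found almost entirely in neutrophil-like cells in these tumors. Of its 1482 UMIs, 1425 (96.2%) were in neutrophil-like cells, and this class held 82.8% to 100% of them in every library. The level in that class was 434 ± 207 CPM (SD over n = 8 libraries), and 34.4% of its cells had at least 1 Cxcr2 UMI. C1q+ macrophage-like cells held 2 UMIs in 316 cells that were deeper (median 3687.5 UMIs). The ratio of the levels was 266, with a 95% counting interval of 73.4 to 2195. By tumor it was 78.1 (14.0 to 3089) in Tumor 1 and 592 (106 to 23432) in Tumor 2, each on 1 UMI in the C1q+ class. B-like, T or NK-like, dendritic-like, plasmacytoid dendritic-like, endothelial-like and fibroblast-like cells held 0 UMIs of Cxcr2, counts that allow up to 9.18 CPM in the B-like class and up to 44.9 in the smallest of them, the plasmacytoid one. In the 41 UMIs of ungated cells the level was 35.6 CPM. Below the neutrophil-like class no neighbouring classes differed beyond their spread over libraries. With every cell thinned to 1000 UMIs, 22.8% of neutrophil-like and 0.241% of C1q+ macrophage-like cells kept a Cxcr2 UMI.

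Cxcl2, a chemokine that activated macrophages and neutrophils make, had by far the most UMIs, and neutrophil-like cells held 48911 of its 57902 (84.5%). Their level was 12695 ± 6955 CPM (n = 8), and 88.2% of them had a Cxcl2 UMI against 2.99% of B-like cells at a similar depth (median 1940 UMIs). The neutrophil-like class led in 8 of 8 libraries, with a share between 63.6% (Tumor 2 Border) and 91.5% (Tumor 1 Border). The C1q+ macrophage-like class came next at 2236 ± 640 CPM (n = 6), and this step was larger than the pooled spread over libraries. Alveolar macrophage-like cells (935 ± 862 CPM, n = 4) and dendritic-like cells (482 ± 114, n = 2) did not differ beyond that spread. Outside the myeloid classes Cxcl2 was low, at 183 ± 88.7 CPM in Krt+ tumor-like cells (n = 4) and 17.2 ± 27.4 in B-like cells (n = 4). Ungated cells held 3868 Cxcl2 UMIs, and 2051 of these were in the Tumor 1 Border library.

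Cxcl3 had the same leading class at a smaller number of molecules. Neutrophil-like cells held 2914 of 3726 Cxcl3 UMIs (78.2%) at 682 ± 332 CPM (n = 8), and led in all 8 libraries. The share was lowest in Tumor 2 Border, where 42.3% was in neutrophil-like cells, and without the Tumor 1 Border library the pooled share was 67.9%. C1q+ macrophage-like cells were at 302 ± 180 CPM (n = 6), below the neutrophil-like class and above the dendritic-like class (123 ± 26.4, n = 2) by more than the pooled spread. B-like, Sftp+ tumor-like and fibroblast-like cells held 0 UMIs of Cxcl3. Thinned to 1000 UMIs, 23.2% of neutrophil-like cells and 9.87% of C1q+ macrophage-like cells kept one.

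Cxcl1, the main neutrophil attractant of stroma and macrophages, was spread over more classes and its leading class changed with the tumor. Of 1495 Cxcl1 UMIs, C1q+ macrophage-like cells held 594 (39.7%), neutrophil-like cells 281, fibroblast-like cells 138 and Krt+ tumor-like cells 128. C1q+ macrophage-like cells led in all 4 libraries of Tumor 2, with 47.1% to 75.4% of the UMIs there. In Tumor 1, Krt+ tumor-like cells led in Whole arrays 1 and 2 with 61.5% and 31.5%, where 1 cell held 48 of their 64 UMIs and 1 cell 35 of their 57. Neutrophil-like cells led in Tumor 1 Border with 91.4%, where they were also most of the cells, and in Whole array 3 with 44.7%. In array 2 the 95% interval of the Krt+ tumor-like share (24.8% to 38.8%) overlapped that of fibroblast-like cells, which held 23.8% (17.8% to 30.6%). The C1q+ macrophage-like level was 32.3 and 135 CPM in the 2 Tumor 1 arrays with at least 10 such cells, 281 in Tumor 2 Border, and 527, 559 and 953 in the Tumor 2 arrays. All 4 values of Tumor 2 were above both of Tumor 1, and the mean was 414 ± 336 (n = 6). In Tumor 1 Whole array 1, left out of that mean with 9 such cells, the level was 347 CPM from 13 UMIs, which is above Tumor 2 Border.

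Cxcl1 was also carried by few cells. The 42 fibroblast-like cells held Cxcl1 at 914 CPM (95% counting interval 768 to 1080) pooled over libraries, and 42.9% of them had a UMI. Only 1 library had 10 such cells, so this class has no spread over libraries, and its levels in 6 libraries with 4 to 10 cells ran from 238 CPM in Tumor 2 Border to 2387 in Tumor 2 Whole array 1, with 0 UMIs in the 2 cells of Tumor 1 Whole array 1. In neutrophil-like cells of Tumor 1 Whole array 3 a single cell held 33 of 34. Thinned to 1000 UMIs, 29.8% of fibroblast-like, 17.4% of C1q+ macrophage-like, 3.95% of neutrophil-like and 0.379% of B-like cells kept a Cxcl1 UMI. Neighbours in the order of levels from C1q+ macrophage-like down to dendritic-like did not differ beyond their spread.

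Cxcl5 and Cxcl15 were found mainly in the tumor-like classes, which carry epithelial markers. These markers do not separate tumor cells from healthy epithelium. The paper proposes that its own tumor clusters are mostly tumor cells but allows for healthy epithelial cells among them. Cxcl5, a ligand that epithelium makes after interleukin-1 or interleukin-17, had 25 UMIs in all, of which 19 were in Krt+ tumor-like cells. These were 8, 7 and 4 UMIs in the 3 Whole arrays of Tumor 1, or 40.5, 27.0 and 28.8 CPM, and the 14 cells that held them made up 8.19% of the class. The Krt+ tumor-like cells of Tumor 1 Border held 0, and Tumor 2 had few cells of this class. Of 350 Cxcl15 UMIs, Sftp+ tumor-like cells, which carry surfactant genes, held 283 (80.9%) at 2053 CPM (95% counting interval 1821 to 2307). Only 45 cells formed this class, 23 of them had a Cxcl15 UMI, and 1 cell held 72. Per library, in 3 to 11 cells each, the level ran from 381 CPM in Tumor 1 Whole array 1 to 3614 in Tumor 2 Border. Krt+ tumor-like cells held 37 Cxcl15 UMIs. They led in Tumor 1 Whole array 3 with 16 of 21 UMIs (76.2%) and held 6 of 13 in array 1, as many as the Sftp+ cells there, and the single Cxcl15 UMI of Tumor 1 Border was in a neutrophil-like cell. In neutrophil-like cells the counts were 2 for Cxcl5 and 4 for Cxcl15, and no C1q+ macrophage-like cell held Cxcl15. Both genes were too low for any of the tests below.

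**Figure D1:**
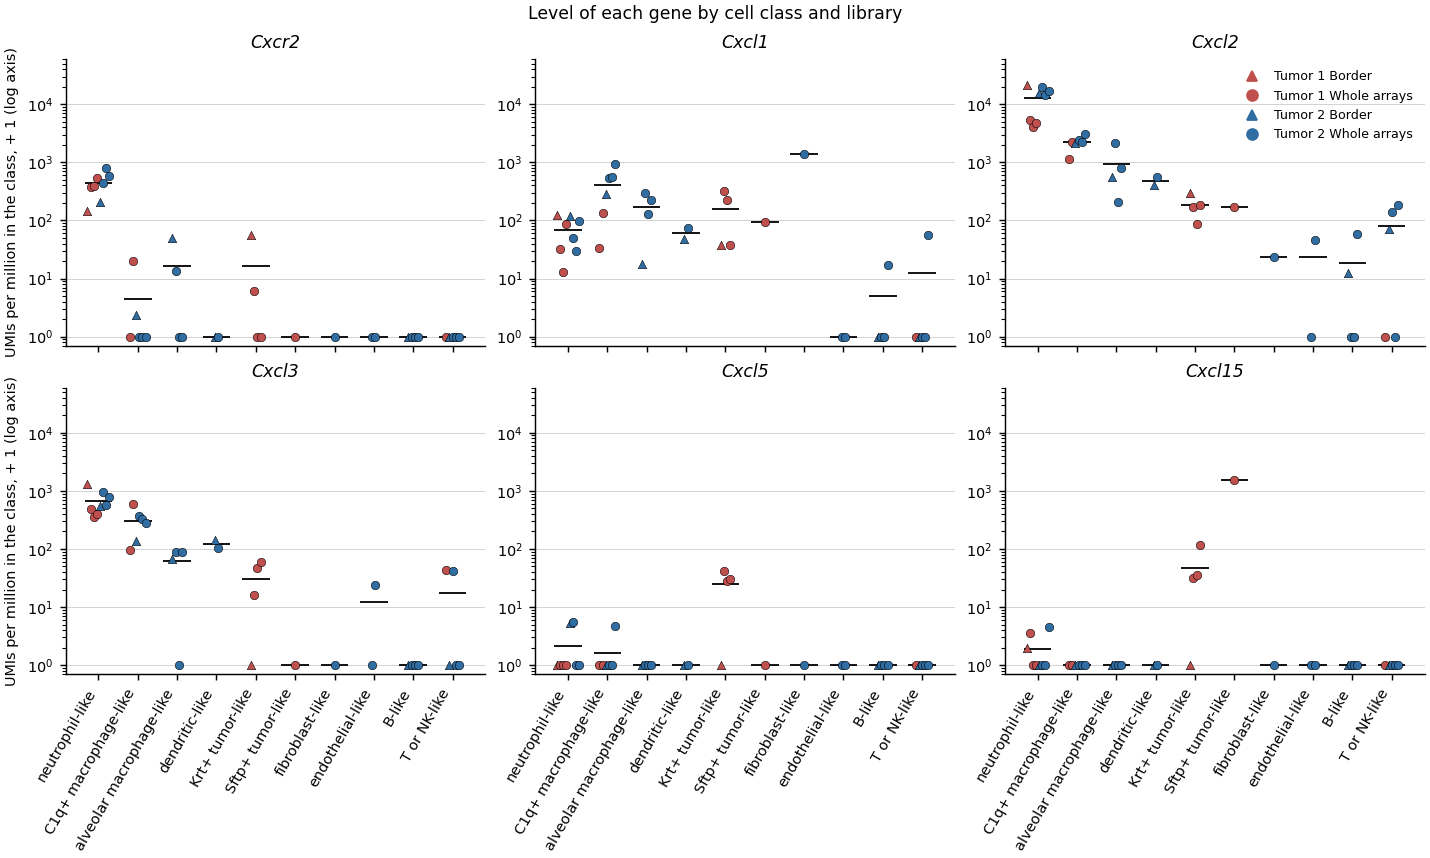
Level of each of the 6 genes in CPM plus 1 (log axis) by class, with 1 point per library that had at least 10 cells of the class. Triangles are Border and circles Whole libraries, red is Tumor 1 and blue Tumor 2, and bars are means over libraries. Cxcr2 stands at 145 to 789 in neutrophil-like cells and between 0 and 56.3 in the other classes plotted, and Cxcl1 is highest in the C1q+ macrophage-like cells of Tumor 2 and in fibroblast-like cells.

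**Figure D2:**
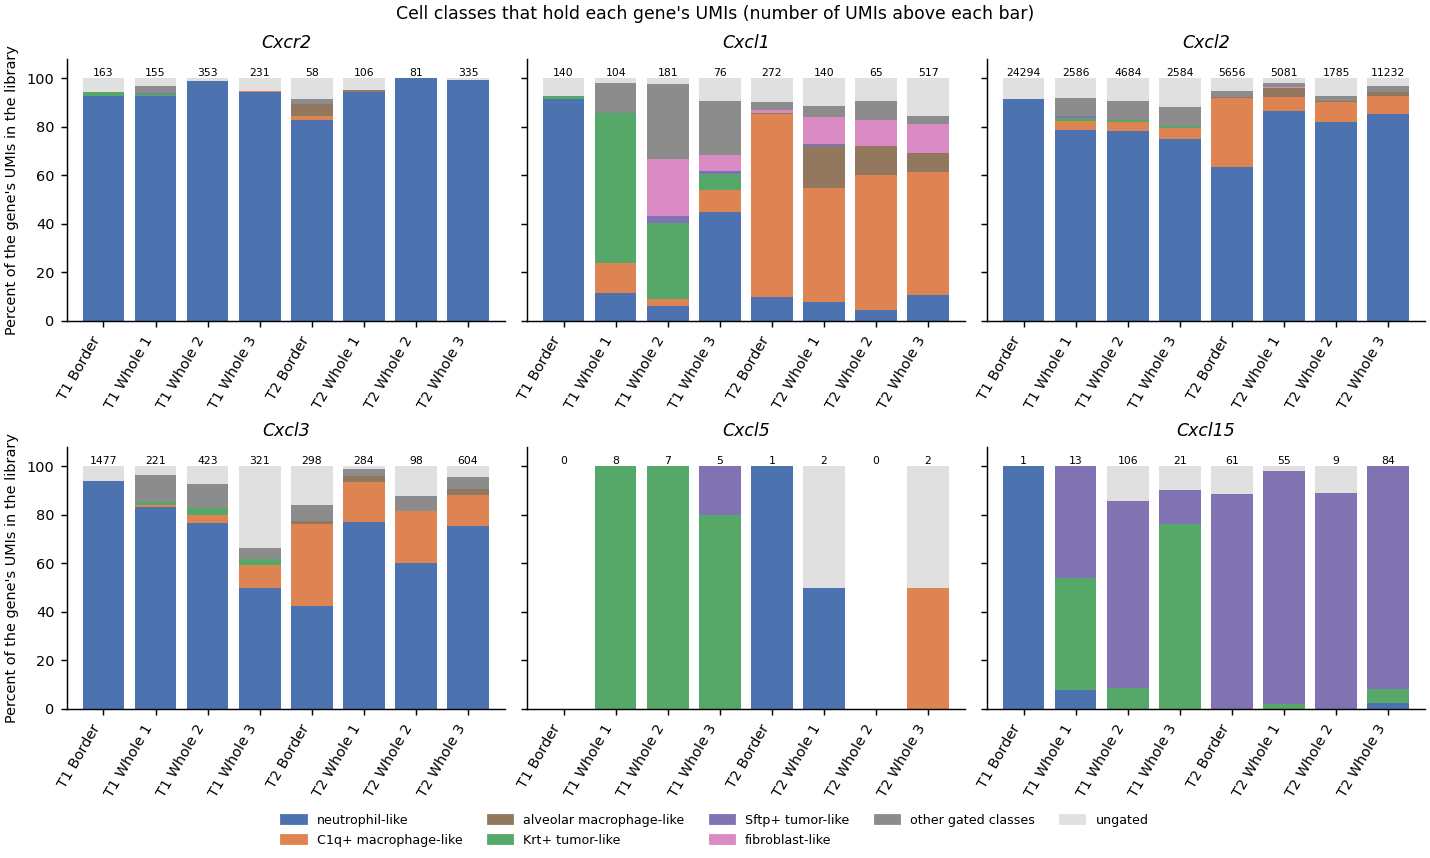
Percent of each gene's UMIs in a library (y axis) that each class holds, with 1 bar per library, colours for classes (the rest joined as other gated classes) and the number of UMIs above the bar. The neutrophil-like part holds 82.8% to 100% of Cxcr2 and 63.6% to 91.5% of Cxcl2, while the largest part of Cxcl1 is another class in Tumor 2 than in Tumor 1 Border.

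Neutrophil-like and C1q+ macrophage-like cells were compared within the 6 libraries that had at least 10 cells of each. Neutrophil-like cells had more Cxcr2, Cxcl2 and Cxcl3, and C1q+ macrophage-like cells more Cxcl1. For Cxcl2 the neutrophil-like levels in Tumor 1 Whole arrays 2 and 3, Tumor 2 Border and Tumor 2 Whole arrays 1 to 3 were 4052, 4814, 15620, 19534, 14239 and 16661 CPM. The C1q+ macrophage-like levels in the same libraries were 1137, 2231, 2185, 2458, 2281 and 3124. The groups did not overlap, although the share of all genes for which this holds was not counted. The log2 fold change was 2.53 (SE 0.34, edgeR adjusted p = 2.18e-05). Cxcl3 was higher in neutrophil-like cells by 1.41 on the log2 scale (SE 0.34, edgeR adjusted p = 0.00373), in 5 of 6 libraries, and in Tumor 1 Whole array 3 it was 398 against 596 CPM. Cxcl1 was lower in neutrophil-like cells in 6 of 6 libraries, with a log2 fold change of -2.15 (SE 0.40, edgeR adjusted p = 4.40e-04). In Tumor 1 the levels were 12.1 against 32.3 CPM in array 2 and 84.5 against 135 in array 3, and in Tumor 2 they were 29.2 to 117 against 281 to 953 CPM. Pooled over all libraries of Tumor 2, the neutrophil-like Cxcl1 level was 0.178 times the C1q+ macrophage-like level (counting interval 0.142 to 0.221). In Tumor 1 this ratio was 0.670 (0.440 to 1.06), an interval that includes 1, so those counts do not settle the direction there. The Tumor 1 pool also holds the Border and array 1, which were not compared here. For Cxcr2, at 2 UMIs in the C1q+ class, the ratio given with its levels above stands in place of a fitted fold change. Of 5127 genes tested, 41.6% were called at an adjusted p under 0.05, 21.7% higher and 19.9% lower in neutrophil-like cells, so that a call is common between these classes. The 6 libraries come from 2 mice, so these p-values measure mostly technical spread, not that between mice.

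Neutrophil-like cells were divided by further markers into a Siglecf-type, named for a gene of long-lived tumor neutrophils, and a mature-type, marked by Retnlg among others. Cxcl2 and Cxcl3 were higher in the mature-type in 6 of 6 libraries with at least 10 cells of each. Cxcl2 in mature-type cells was 27416 CPM in Tumor 1 Border, 16527, 8429 and 8329 in the Tumor 1 arrays, 19127 in Tumor 2 Border and 18069 in Tumor 2 Whole array 3. In Siglecf-type cells it was 16959, then 3961, 3247 and 4097, then 12136 and 7895. The log2 fold change was 1.42 (SE 0.25, edgeR adjusted p = 1.66e-05). Cxcl3 in mature-type cells was 2926, 3691, 1081, 580.4, 843 and 918 CPM in the same order, and in Siglecf-type cells 663, 333, 305, 360.3, 310.5 and 47.1. It was higher by 2.39 on the log2 scale (SE 0.33, edgeR adjusted p = 3.39e-08). The mature-type and Siglecf-type ranges overlapped across libraries for both ligands, so the difference is one within libraries. Of 3428 genes, 9.74% were called, 5.95% higher and 3.79% lower in the mature-type. These libraries again come from 2 mice, so the p-values measure mostly technical spread.

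The receptor did not follow the ligands across these subtypes. Cxcr2 was at 55.1, 81.0 and 261 CPM in the mature-type cells of the Tumor 1 arrays against 368, 410.2 and 624 in their Siglecf-type cells. In Tumor 2 Whole array 3 the order was the other way, 658 against 118, and the Border values were 151 and 160.4 in Tumor 1 and 232 and 162 in Tumor 2. The fitted log2 difference was -0.05 (95% interval -0.83 to 0.74, edgeR adjusted p = 0.956), and its sign changed with the gate, the cell filter and the arrays used. Cxcl1 was at 0.16 (95% interval -0.85 to 1.16, edgeR adjusted p = 0.875) and also changed sign with the scaling. Pooled over all libraries Cxcr2 was 494 CPM in the mature-type and 350.4 in the Siglecf-type, a comparison that mixes the subtypes with the tumors, since Siglecf-type cells were 63.9% to 75.9% of neutrophil-like cells in the Tumor 1 arrays and 3.92% to 7.02% in those of Tumor 2.

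**Figure D3:**
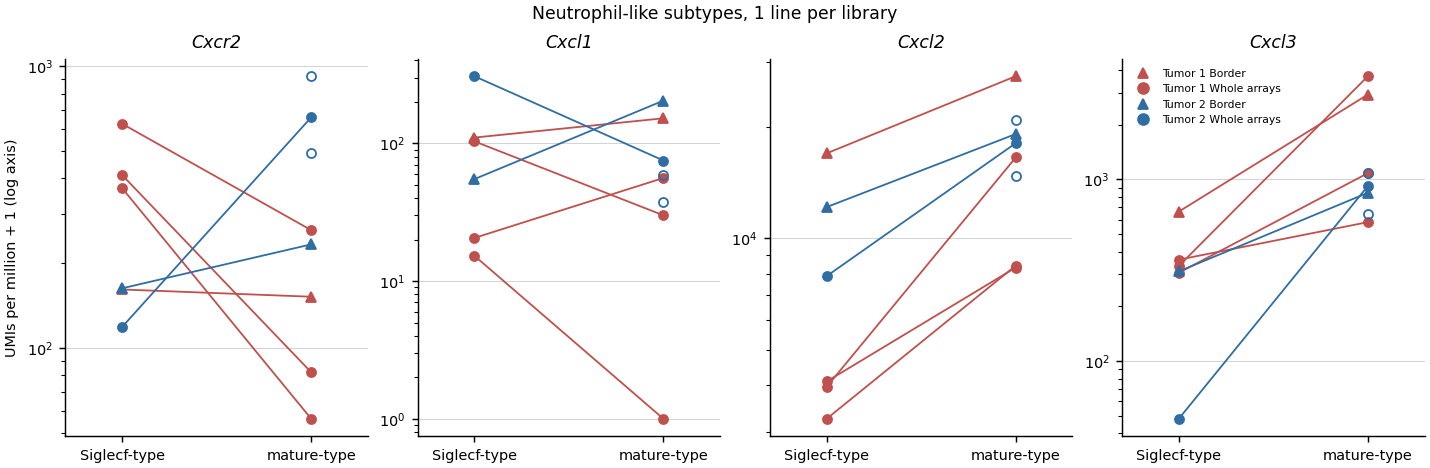
Cxcr2, Cxcl1, Cxcl2 and Cxcl3 in Siglecf-type and mature-type neutrophil-like cells, in CPM plus 1 (log axis), with 1 line per library and open circles for libraries with under 10 Siglecf-type cells. Lines for Cxcl2 and Cxcl3 rise to the mature-type in 6 of 6 libraries, while those for Cxcr2 cross.

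The receptor and Cxcl2 were found in the same cells. The 567 neutrophil-like cells with a Cxcr2 UMI held Cxcl2 at 10732 CPM, and the 1083 without one held 14045. In all 4 libraries of Tumor 1 the cells with a Cxcr2 UMI had the lower Cxcl2 level, for example 17767.5 against 22460.5 CPM in Tumor 1 Border. In Tumor 2 they had the higher level in 3 of 4 libraries and the lower one in Whole array 2. Of those 3, Tumor 2 Border had the lower Cxcl2 level in the cells with a Cxcr2 UMI within both named subtypes, at 18074 against 19919 CPM in mature-type and 10399.8 against 12769.7 in Siglecf-type cells, and the higher one in the cells left undivided between the subtypes, at 24038.5 (6 cells) against 11124.4 (24 cells). Cells with a Cxcr2 UMI were deeper (median 2492 against 1854 UMIs), and the parts of depth and of the subtype mix in this difference were not tested.

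In Tumor 1, neutrophil-like cells of the Border had more Cxcl2, Cxcl3 and Cxcl1 and less Cxcr2 than those of the Whole arrays. Cxcl2 was at 21306 CPM in the Border and 5336, 4052 and 4814 in the arrays (mean 4734 ± 645, n = 3). Cxcl3 was at 1329.5 against 481, 357 and 398 (412 ± 63.4), and Cxcl1 at 123 against 31.4, 12.1 and 84.5 (42.7 ± 37.5). Each Border value lay above all 3 arrays. How many of all genes lie outside the arrays was not counted. Such placements, and groups without overlap, are descriptions only, here and below. Cxcr2 was at 145 CPM in the Border and 377, 386 and 542 in the arrays (435 ± 92.7), below all of them. The edgeR log2 fold changes, which use scaling factors from all genes and so differ from ratios of these levels, were 2.70 for Cxcl2 (SE 0.24, adjusted p = 1.02e-09) and 2.22 for Cxcl3 (SE 0.26, adjusted p = 2.62e-07). They were 2.23 for Cxcl1 (SE 0.48, edgeR adjusted p = 0.00225) and -1.05 for Cxcr2 (SE 0.31, edgeR adjusted p = 0.0286). Of 6461 genes tested, 7.63% were called, 6.38% higher and 1.25% lower in the Border, and all 4 of the genes that could be tested were among them. Scaled by total UMIs alone, the split turned from 412 higher and 81 lower to 163 higher and 815 lower, as the median gene moved from -0.05 to -0.59, and the 4 genes kept their direction and their call. Cxcl1 kept its call at 1.59 without Whole array 2 and at 3.20 without array 3, where 1 cell held 33 of the 34 UMIs, and lost it in DESeq2 (2.03, adjusted p = 0.0505). The Cxcr2 call was lost without Whole array 3 (-0.87, edgeR adjusted p = 0.135), without a filter on low counts (0.379) and with cells of at least 500 genes (0.261). In each of these Cxcr2 stayed lower at the Border, and its sign changed in 1 of 17 alternatives, within mature-type cells (0.58). There is 1 Border library per tumor, assumed here to vary like the arrays, and the fit takes its spread from the 3 Whole arrays of each tumor, so these p-values measure the spread between technical arrays, not between mice. In every Border comparison, position cannot be told apart from photoactivation and the sort.

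In Tumor 2, Cxcr2 was again lower at the Border, while Cxcl2 and Cxcl3 were not higher there. Cxcr2 was at 208 CPM in the Border and 445, 789 and 579 in the arrays (604 ± 173, n = 3), below all 3, with a log2 fold change of -1.90 (SE 0.35, edgeR adjusted p = 0.00101). Cxcl2 was at 15620 against 19534, 14239 and 16661 CPM (16812 ± 2651), within the range of the arrays. Its log2 fold change was -0.51 (95% interval -1.03 to 0.02, edgeR adjusted p = 0.273). Cxcl3 was at 547 against 974, 575 and 791 CPM (780.1 ± 200.2), just below the arrays, and did not pass the test (-0.95, 95% interval -1.56 to -0.33, edgeR adjusted p = 0.0655), although it did without Whole array 2 (-1.13, adjusted p = 0.0115), with DESeq2 size factors in edgeR (-0.92, 0.0498) and with all barcodes (-0.97, 0.0495). Cxcl1 was at 117 CPM in the Border, above the arrays at 48.9, 29.2 and 95.6, and the fit gave 0.30 (95% interval -0.87 to 1.47, edgeR adjusted p = 0.818), or 1.12 without Whole array 3. Of 6461 genes, 7.07% were called, 2.41% higher and 4.66% lower, and Cxcr2 was the only 1 of the 4 genes among them. By total UMIs alone the split turned from 156 higher and 301 lower to 519 and 147, the median gene from 0.03 to 0.47, and Cxcr2 stayed lower (-1.48, edgeR adjusted p = 0.00521). Its call was lost with cells of at least 500 genes (-1.70, edgeR adjusted p = 0.0602).

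**Figure D4:**
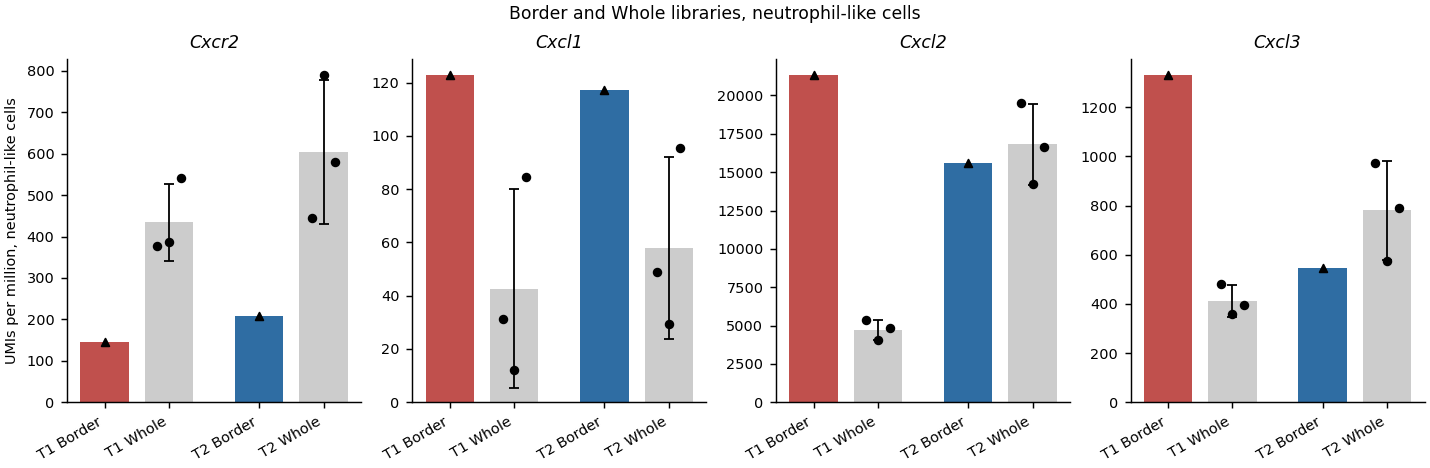
Levels of Cxcr2, Cxcl1, Cxcl2 and Cxcl3 in neutrophil-like cells in CPM (linear axes that start at 0). Coloured bars with a triangle are the single Border library of each tumor, and grey bars are the mean of 3 Whole arrays with their SD and the arrays as dots. Cxcr2 is below all arrays at both Borders, and Cxcl2 is above them in Tumor 1 only, at 21306 against 4052 to 5336.

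The difference between the tumors was tested for each gene. The Border effect on Cxcl2 was larger in Tumor 1 by 3.20 on the log2 scale (SE 0.38, edgeR adjusted p = 5.95e-07), a call lost with cells of at least 500 genes (3.15, adjusted p = 0.108), and that on Cxcl3 by 3.17 (SE 0.42, edgeR adjusted p = 3.67e-06). For Cxcl1 the difference was 1.92 (95% interval 0.41 to 3.43, edgeR adjusted p = 0.121) and for Cxcr2 0.85 (-0.04 to 1.73, edgeR adjusted p = 0.261), neither past the threshold. The Cxcr2 value turned to -0.11 when scaled by total UMIs. That of Cxcl1 ran from 1.12 to 2.87 when a library was left out, and passed at 2.87 without Tumor 1 Whole array 3 (edgeR adjusted p = 0.00925). Of all genes 9.02% were called, 6.72% with the larger value in Tumor 1 and 2.31% with the larger value in Tumor 2. This split turned from 434 and 149 to 168 and 1114 under total UMIs, with the median gene at -0.09 and -1.07. The Whole arrays of the tumors differed as well, and the tests share their samples with those above. Cxcl2 was 14239 to 19534 CPM in the Tumor 2 arrays against 4052 to 5336 in those of Tumor 1, without overlap (log2 fold change 2.59, SE 0.19, edgeR adjusted p = 2.20e-12). Cxcl3 was higher in Tumor 2 by 1.73 (SE 0.21, edgeR adjusted p = 7.51e-08), also without overlap. Cxcr2 (1.21, edgeR adjusted p = 2.63e-05) and Cxcl1 (1.69, edgeR adjusted p = 0.00362) were called higher with overlapping levels, and both calls were lost when scaled by total UMIs (0.43 and 0.88). The Cxcl1 call was also lost in DESeq2 (1.33, adjusted p = 0.0734) and in edgeR within Siglecf-type (3.03, 0.106) and mature-type cells (1.82, 0.189). It was at 0.90 without Tumor 2 Whole array 3 (edgeR adjusted p = 0.311), at 1.05 without Tumor 1 Whole array 2 (0.0379) and at 2.65 without Tumor 1 Whole array 3 (3.57e-05). The background is high here, with 40.4% of genes called, 21.3% higher and 19.1% lower, and it turned from 1377 higher and 1232 lower to 706 and 3369 under total UMIs, the median gene from -0.22 to -1.03. These levels place the Tumor 1 Border, at 21306 CPM of Cxcl2, above every array of Tumor 2, and the Tumor 1 arrays below them.

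The mix of subtypes moved with these comparisons, and fits within a subtype were added after the data were seen. Mature-type cells were 18.8% of neutrophil-like cells in Tumor 1 Border against 6.19% to 14.8% in its arrays, and 45.05% in Tumor 2 Border against 78.1% to 84.3%. Siglecf-type cells were 48.6% in Tumor 1 Border against 63.9% to 75.9%, and 27.9% in Tumor 2 Border against 3.92% to 7.02%. The cells left undivided, 352 in all with Cxcl2 at 17592 CPM, were 32.6% against 17.9% to 24.0% and 27.0% against 9.75% to 14.9%, and the fits within a subtype leave them out. Within Siglecf-type cells of Tumor 1, Cxcl2 (2.53, edgeR adjusted p = 1.02e-06) and Cxcl3 (1.36, edgeR adjusted p = 9.57e-04) were higher and Cxcr2 lower (-1.17, edgeR adjusted p = 0.0351) at the Border, and Cxcl1 did not pass (1.81, edgeR adjusted p = 0.105). Within mature-type cells of Tumor 1, Cxcl2 was higher by 1.91 (edgeR adjusted p = 0.00187). There Cxcl3 was at 1.44 (edgeR adjusted p = 0.0905), Cxcl1 at 3.20 (0.0704) and Cxcr2 at 0.58 (0.766), the latter opposite in sign. In Tumor 2 no member passed within a subtype, and Cxcr2 was at -1.62 in mature-type cells (edgeR adjusted p = 0.121) and at 0.50 in the Siglecf-type (0.810). Cxcl3 in Tumor 2 was at 2.75 in Siglecf-type (edgeR adjusted p = 0.0838) and -0.16 in mature-type cells (0.939). All Siglecf-type values that involve the Whole arrays of Tumor 2 rest on 1 sum, that of array 3 with 14 cells and 2 Cxcl3 UMIs, which is assumed to vary like the others. The difference between tumors for Cxcl2 was 1.87 within Siglecf-type cells (edgeR adjusted p = 0.0313) and 1.89 within mature-type cells (edgeR adjusted p = 0.0692). That for Cxcl3 was not called in either, at -1.39 in Siglecf-type cells (edgeR adjusted p = 0.531), opposite in sign, and 1.60 in mature-type cells (0.240). Between the Whole arrays Cxcl2 stayed higher in Tumor 2 within both subtypes (1.16 and 1.19), while Cxcl3 was at -0.37 in mature-type cells (edgeR adjusted p = 0.510) and at -2.70 in the single Siglecf-type sum, which with 2 UMIs is given as a value only. Cxcr2 differed in sign between the subtypes, at 2.63 in mature-type cells (edgeR adjusted p = 7.06e-05, with 1, 3 and 9 UMIs in the arrays of Tumor 1) and -1.88 in Siglecf-type cells (edgeR adjusted p = 0.123), where Tumor 2 enters with 5 UMIs in 14 cells. Markers of C1q+ macrophage-like cells summed in neutrophil-like cells to 1.44 UMIs per 10000 in Tumor 1 Border against 3.54 to 5.81 in its arrays, and to 2.74 in Tumor 2 Border against 1.56 to 3.69. In Tumor 2 Border the markers of the neutrophil-like class itself summed to 139 UMIs per 10000 against 271 to 294 in its arrays, those of dendritic-like cells to 2.04 against 0.195 to 0.445, and those of T or NK-like cells to 1.69 against 0.0974 to 0.489. The neutrophil-like markers of Tumor 1 Border were within the range of its arrays (103 against 96.5 to 111), and its mitochondrial transcripts were lower (382 against 458 to 648). The part of these shifts in the results, the Cxcr2 difference included, was not tested.

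With the tumor, and so the mouse, as the replicate, no gene was called in the main fit. In a fit of 2 Border and 2 Whole sums, 0 of 6749 genes (0%) passed in edgeR, with 193 at an unadjusted p under 0.05, and 0 passed in DESeq2, with 79. Cxcr2 was at -1.49 (95% interval -2.89 to -0.08) and lower in 2 of 2 tumors, and Cxcl1 at 1.29 (0.20 to 2.38) and higher in 2 of 2. Cxcl2 was at 1.05 (-4.64 to 6.74) and Cxcl3 at 0.60 (-1.48 to 2.68), and the tumors differed in sign for both. These are normal intervals from the SE, which are too narrow for a fit with 1 residual degree of freedom. Those of Cxcr2 and Cxcl1 are therefore not read as excluding 0. All 4 edgeR adjusted p-values were 1.00 to the digits given.

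In C1q+ macrophage-like cells the Border could be compared in Tumor 2 only, since Tumor 1 Border had 1 such cell among 620. Cxcl1 was at 281 CPM in the Border against 527, 559 and 953 in the arrays (679 ± 237, n = 3), below all 3, with a log2 fold change of -1.42 (95% interval -2.35 to -0.48, edgeR adjusted p = 0.405). Cxcl3 was at 139 against 375, 326 and 280.03 CPM (-1.33, edgeR adjusted p = 0.599), and Cxcl2 at 2185 against 2458, 2281 and 3124 (-0.38, edgeR adjusted p = 0.978). None of the 3 ligands passed, where 0.261% of 3831 genes did, 10 in all and from 2 (without Tumor 1 Whole array 2) to 18 (without Tumor 2 Whole array 1) when a library was left out. With a gate of at least 3 markers and a lead of 2, Cxcl1 passed (-1.48, edgeR adjusted p = 0.0357).

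The other genes of this pathway were read from a list of 35 that holds other ligands and receptors, inducers of the ligands, signalling and desensitising proteins and proteases. In Tumor 1, 4 of 24 tested were higher and 0 lower in Border neutrophil-like cells, beside 6.38% higher and 1.25% lower over all genes, with a list median of 0.01 against -0.05. They were Tnf, which encodes tumor necrosis factor (3.83), Il1a (2.41) and Il1b (0.91), which encode interleukin-1, and Ccrl2 (1.94), a non-signalling chemoattractant receptor. Tnf was at 3247 CPM in the Border against 427, 291 and 276 in the arrays, a wide gap between groups. In Tumor 2, 3 of 24 were higher and 7 lower, beside 2.41% and 4.66% of all genes (list median -0.35, all genes 0.03). Higher were Vav1 (1.14), Il1a (1.16) and Tnf (1.10, named here for its value in Tumor 1), and lower were Il1b (-1.60), Ccrl2 (-1.23), Rac2 (-1.30), a GTPase of neutrophil migration, and 4 more. Il1b was at 8114 CPM in the Border against 16598, 21943 and 17859 in the arrays of Tumor 2, and at 5983 against 4671, 4524 and 4548 in Tumor 1. Tnf and Il1a thus passed as higher in both tumors, and Il1b and Ccrl2 passed in opposite directions. Within Siglecf-type cells of Tumor 2, Border and Whole array 3 were at 702 and 1131 CPM for Il1a, opposite in direction. They were at 8383 and 7777 for Il1b, also opposite, and at 2106 and 2168 for Ccrl2. Tnf was higher there (945 and 306). In mature-type cells of Tumor 2 each of these genes kept its direction against every array. The part of the subtype mix was not tested. The tests of the difference gave 6 of 24 larger in Tumor 1 and 0 larger in Tumor 2, beside 6.72% and 2.31% of all genes (list median 0.56, all genes -0.09), led by Ccrl2 (3.17), Il1b (2.51), Tnf (2.73), Rac2 (1.19) and Il1a (1.25).

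Between the Whole arrays 11 of 24 listed genes were higher in Tumor 2 and 4 lower, beside 21.3% and 19.1% of all genes (list median 0.42, all genes -0.22). Il1b (2.79), Dock2 (2.33) and Ccrl2 (2.30) were higher and Il1a (-1.62) lower. Within Siglecf-type cells Il1a went the other way, at 1131 CPM in Tumor 2 Whole array 3 against 642, 795 and 755 in Tumor 1. In mature-type cells Il1a was lower in every Tumor 2 array, at 48.5 to 162 CPM against 755 to 1243. Mmp8, a neutrophil collagenase, passed with 3, 2 and 5 UMIs in the arrays of Tumor 1 against 68, 30 and 115 in those of Tumor 2, and no fold is given. It is also a marker of the mature-type, whose share differed between the arrays. Against C1q+ macrophage-like cells, 12 of 26 were higher in neutrophil-like cells and 2 lower, beside 21.7% and 19.9% of all genes (list median 0.71, all genes 0.01). Ccrl2 (3.18) and the kinase Fgr (3.17) were higher. Pf4, a CXC chemokine without the ELR motif, had 0 or 1 UMI in each compared neutrophil-like sum against 13 to 182 in the C1q+ macrophage-like sums, and Mmp8 had 0 to 3 UMIs in the latter against 2 to 115, so that no fold is given for either. Mmp9 is a marker of the gate and had to differ. Between mature-type and Siglecf-type cells 2 of 23 were higher, of which Mmp8 is a marker that defined the split and is no finding, which leaves Ccrl2 (1.04), and 2 were lower, which were Arrb2, a beta-arrestin that desensitises the receptor (-1.31), and Pik3r5 (-1.45), beside 5.95% and 3.79% of all genes and with list and gene medians of -0.18 and -0.17. The split over all genes in that comparison turned from 204 higher and 130 lower to 136 and 411 under total UMIs, with the median gene at -0.48. In C1q+ macrophage-like cells of Tumor 2 and in the fit over both tumors, 0 of 23 and 0 of 26 passed. The ligand Ppbp was below the filter in each fit, and Cxcr1, the second ELR receptor, in each but the fit over both tumors (-0.09, edgeR adjusted p = 1.00).

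For genes with at least 200 UMIs, the 3 genes whose level followed each most closely were found over 26 sums of a class and library from 8 classes, as Pearson correlations of log2(CPM + 10). Each sum held at least 20 cells, so Sftp+ tumor-like and fibroblast-like cells, fewer in every library, entered none. The Cxcl15 correlations therefore do not describe the class that held most of its UMIs. The sums share libraries and depth, so these are descriptions. Cxcr2 was followed by Gm5483 (0.98), S100a9 (0.98) and G0s2 (0.97), of which the last pair are gate markers. Cxcl2 was followed by Gp49a (0.96), Ccrl2 (0.95) and the chemokine gene Ccl3 (0.95). Cxcl3 went with Cxcl2 (0.94), Ptafr (0.92) and Slc7a11 (0.92), and Cxcl15 with Sftpd (0.98), Cldn4 (0.96) and Cldn18 (0.96), of which the first and second are gate markers. Cxcl1 had weaker partners in Tnfrsf21 (0.77), Rin2 (0.74) and Procr (0.73). When 1 was added in place of 10, none of these stayed among the first 3 of Cxcl1, and G0s2 left the first 3 of Cxcr2, Gp49a those of Cxcl2, Cxcl2 those of Cxcl3 and Sftpd those of Cxcl15.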

How the data were processed

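Single-cell RNA was measured by Seq-Well in 8 libraries of 2 tumors. Per the labels and methods, the authors demultiplexed reads with bcl2fastq 2.17.1.14, aligned read 2 to mm10 with STAR 2.5.2b under the Drop-seq protocol, merged UMIs and deposited raw UMI counts per gene and barcode for each array. The annotation release is not given in the sources used here. No values were normalized before deposit. The tables hold 4343 barcodes, the number of cells the methods give after a filter of at least 200 genes, and 3894 of them had that many. The values were taken as deposited counts.

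Cells took the class with the most detected markers of 13 lists of 8 (7 for the B-like class, since its marker Ighd has no row in the tables), at least 2 and more than any other class. Values of 1 class, and part of the tumor genotype and of the marker lists, are not reported here. Scrublet in scanpy 1.11.5 called 57 cells (1.46%) doublets, which were kept in the main analysis. UMIs were summed per class and library, needing at least 10 cells, and tested with edgeR 4.0.16 (quasi-likelihood, TMM scaling, filterByExpr, Benjamini-Hochberg over all genes tested, threshold 0.05), with DESeq2 1.42.0 as an alternative. Neutrophil-like sums of all 8 libraries were fitted with 1 mean per tumor and region, and classes or subtypes within a library were compared with the library as a block. Scripts were tested on simulated data. Intervals of single values are exact 95% Poisson or Clopper-Pearson intervals and cover counting error only, as does the limit of 3 UMIs used for a count of 0. Intervals of log2 fold changes are normal 95% intervals from the SE of the fit. Libraries held 405627 to 2029200 UMIs. Sums of few cells limit Cxcl1, Cxcl5, Cxcl15 and the small classes.

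The genes, marker lists, pathway list and tests were chosen with earlier results of these data known. Text names all 6 genes, those of the pathway list past the threshold with the 5 lowest adjusted p in each comparison, and the 3 most similar genes of each. Alternatives were other scalings, no filter, a stricter gate (at least 3 markers with a lead of 2), cells of at least 500 genes, all barcodes, no doublets and leaving out libraries. Fits within 1 subtype, class shares without Tumor 1 Border and without shared barcodes were chosen after seeing the data. Sequences were read from GENCODE transcripts and RefSeq promoters of GRCm38.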

Additional observations from a re-analysis of the deposited data

Results flagged for a closer look

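The Border effect in neutrophil-like cells differed between the tumors by an edgeR test of the difference itself, on the log2 scale, for Cxcl2 (3.20) and Cxcl3 (3.17). From the pathway list the same test picked out Ccrl2 (3.17), Il1b (2.51), Tnf (2.73), Rac2 (1.19), Il1a (1.25) and Dock2 (1.42), each with the larger value in Tumor 1. Cxcl2 lost this call with cells of at least 500 genes and within mature-type cells, with values from 1.87 to 3.36 over all alternatives. Cxcl3 was not called within either subtype and turned to -1.39 within Siglecf-type cells. Each tumor has 1 Border library, so the tumor and its Border library cannot be told apart.

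The ungated cells entered no comparison. In those of Tumor 1 Border, Cxcl2 was at 16292 CPM (95% counting interval 15594 to 17012), against 1565 to 2424 in the ungated cells of the 3 Whole arrays. Ungated cells of Tumor 2 Border were at 1757 CPM, within the 1042 to 1841 of the arrays of that tumor. The 186 ungated cells of Tumor 1 Border were in a library of which 67.7% of cells were neutrophil-like, and the part of that class in this level was not tested.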

How the results depend on the processing

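Of the values of Cxcr2, Cxcl1, Cxcl2 and Cxcl3 under the alternatives, 443 kept their direction and side of the threshold, 19 lost a call, 6 gained one and 22 changed sign. Cxcl2 kept its call in Tumor 1 and between the Whole arrays in every alternative (17 and 19 fits), and Cxcl1, Cxcl2 and Cxcl3 kept theirs between neutrophil-like and C1q+ macrophage-like cells (15 fits each). The cause of the changes listed here was not tested unless the setting removes cells or samples.

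Counts of genes called moved by over 1.5 times as follows. In Tumor 1 (493) DESeq2 called 298, total UMIs 978, no filter 319, cells of at least 500 genes 244, Siglecf-type cells 268 and mature-type cells 72, and leaving out a library gave 262 (without Tumor 1 Whole array 3) to 575. In Tumor 2 (457) no filter called 204, cells of at least 500 genes 174, Siglecf-type 62 and mature-type cells 69, and leaving out a library gave 301 (without Tumor 2 Whole array 3) to 501. For the difference between tumors (583) DESeq2 called 358, total UMIs 1282, no filter 334, at least 500 genes 246, Siglecf-type 40 and mature-type cells 57 (462 to 666 without a library). Between the Whole arrays (2609) total UMIs called 4075, Siglecf-type 148 and mature-type cells 612, leaving out a library 1738 (without Tumor 2 Whole array 3) to 2608. Between classes (2132) the fit without the library block called 1317 (1472 to 2061 without a library). Between subtypes (334) total UMIs called 547, no filter 97, at least 500 genes 207 and no library block 220, with 149, 187 and 220 without Tumor 1 Border, Tumor 2 Border and Tumor 1 Whole array 2, and up to 295 without another library. In C1q+ macrophage-like cells (10) DESeq2 called 2, no filter 16 and the stricter gate 40 (2 to 18 without a library), and over both tumors (0) leaving out a library gave 0 to 1 (1 without Tumor 2 Whole array 3).

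Within Siglecf-type cells the sign changed for Cxcr2 (0.50), Cxcl1 (-2.46), Cxcl2 (0.66) and Cxcl3 (2.75) in Tumor 2, for Cxcl3 (-1.39) and Cxcr2 (-1.67) in the difference between tumors, and for Cxcr2 (-1.88) and Cxcl3 (-2.70) between the Whole arrays. Within mature-type cells it changed for Cxcr2 in Tumor 1 (0.58), Cxcl2 in Tumor 2 (0.02) and Cxcl3 between the Whole arrays (-0.37). Under total UMIs Cxcr2 turned to -0.11 in the difference between tumors and Cxcl1 to -0.21 between subtypes. Between subtypes Cxcl1 was also at -0.01 under the stricter gate and from -0.29 to 0.75 without a library, and Cxcr2 at 0.15 under that gate, 0.31 with at least 500 genes, 0.14 without the library block and from -0.56 to 0.33 without a library (0.21, 0.33 and 0.16 without Tumor 1 Whole array 1, 2 and 3). Among lost calls, the Cxcl1 call of Tumor 1 was lost in DESeq2 (adjusted p = 0.0505). Cxcr2 in Tumor 2 (0.0602) and the difference in Cxcl2 (0.108) were lost with cells of at least 500 genes. The subtype call of Cxcl2 was lost without the library block (0.0810). That value was from 1.14 to 1.58 in every alternative, against 1.42 in the main fit.

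The share of Cxcl2 UMIs in neutrophil-like cells was 75.9% under the stricter gate. Thinned to 500 UMIs, 1.55% of Krt+ tumor-like cells kept Cxcl5 and 35.9% of Sftp+ tumor-like cells Cxcl15. With log2(CPM + 1), 0 of the 3 genes most similar to Cxcl1 were shared.

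Whole arrays of both tumors carry the numbers 1 to 3. Deviations of same-numbered arrays correlated at 0.01, 0.02 and -0.00 over 4834 genes. Differently numbered arrays were as weakly correlated, for example -0.02 for Tumor 1 array 2 and Tumor 2 array 1. With no correlation of either kind, this check cannot tell whether the numbers pair the arrays. With the number as a replicate block, a fit of the 6 Whole arrays alone called 2296 of 5430 genes between the tumors. The main fit, which also holds the Border sums, called 2609 of 6461, so the effect of the block is not separated from that of the samples and genes. Depth limits Cxcl5, Cxcl15 and Cxcl1 in the small classes, and 1 Border library per tumor limits every Border result.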
